A study of Mus musculus with 20 samples.

Results

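Neutrophils that entered lipopolysaccharide (LPS) air pouches of mice homozygous for a knock-in of Ager, the gene of the receptor RAGE, were compared with those of wild-type (WT) mice. The comparison holds 6 of the 20 samples of the series, 3 Ager AHA/AHA libraries (replicates 2, 4 and 6) and 3 WT libraries (replicates 1, 2 and 3), chosen by their labels. All mice were labelled C57BL/6, and age was not given in the sources used here. The AHA allele replaces 3 neighbouring residues of the C1 domain and was made by microinjecting Cas9 mRNA, a guide RNA and a repair oligonucleotide into C57BL/6J eggs. Heterozygous offspring were then intercrossed. How many founders the line had is not stated in the sources used here. The label gives these mice as RAGE knock-in. All pouch mice, WT included, had received sterile air under the back skin and then 1 μg of Escherichia coli LPS in carboxymethyl cellulose, and the cells were washed out 4 h later. By the submitters' account more than 95% of the cells were neutrophils. Another 3 pouch libraries from Ager-/- mice, which lack the receptor, entered the same fit, and perfused lungs of 3 WT and 4 Ager AHA/AHA mice gave the same contrast in other libraries.

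RAGE is a cell surface receptor of the immunoglobulin superfamily. It binds S100 proteins, the nuclear protein HMGB1 when released from cells, and proteins modified by sugars, and its signals reach NF-κB and the MAP kinases. Heparan sulfate, a sulfated sugar chain of cell surfaces and matrix, binds basic residues of RAGE and holds receptor molecules together in an oligomer, and the AHA substitutions were designed to weaken that binding. Neutrophils recruited by LPS carry granule proteins and make interleukin-1, chemokines and interferon-stimulated proteins.

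Of 54532 genes in the deposited count table, 11632 passed the filter on low counts. Of these, 223 were called, 161 higher and 62 lower in Ager AHA/AHA, by edgeR's quasi-likelihood test, with the thresholds of 0.05 for the Benjamini-Hochberg adjusted p and 1 for the size of the log2 fold change (log2FC, knock-in minus WT). The percentage called was 1.92%, and the median log2FC of all genes tested was 0.02. The call depended on single libraries, with 40 genes when WT replicate 1 was left out, 87 for WT replicate 3, 106 for knock-in replicate 4 and 47 for knock-in replicate 6, but 337 for WT replicate 2 and 352 for knock-in replicate 2. The genes called higher were mostly scarce, with a median level of 1.29 CPM (counts scaled to a common library size) in WT and 3.76 CPM in the knock-in. The genes called lower had a median of 8.58 CPM in WT and 2.60 CPM in the knock-in. Total counts per library ranged from 18226486 to 23522678 over the 6 libraries.

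**Figure D1:**
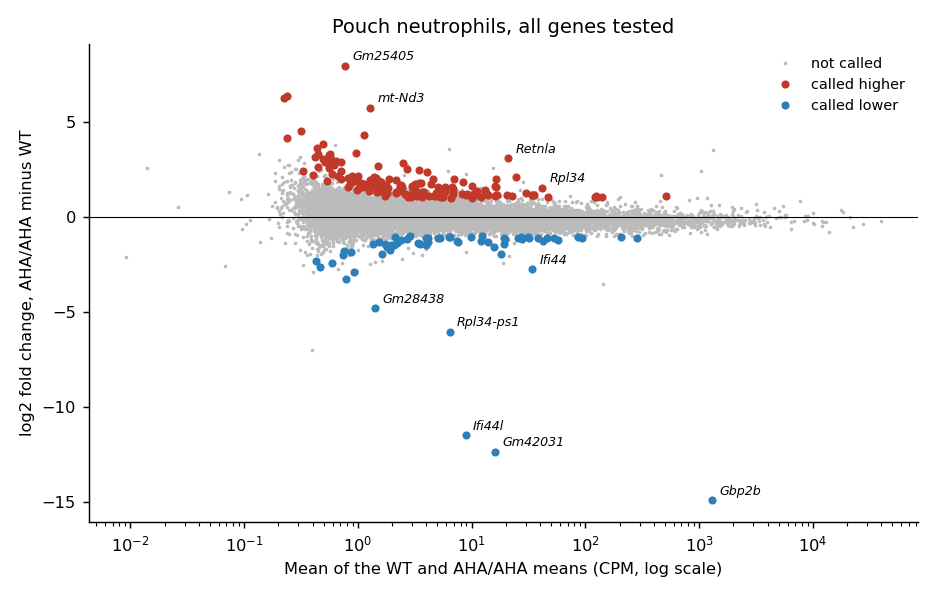
Each point is 1 of the 11632 genes tested in pouch neutrophils, with the mean of the WT and Ager AHA/AHA group means in CPM on a log axis and the log2 fold change of Ager AHA/AHA minus WT on the vertical axis. Red points are the 161 genes called higher and blue points the 62 called lower. Gbp2b, Gm42031, Ifi44l and Rpl34-ps1 lie far below the other lower genes, and the fitted values of genes with 0 counts in a group depend on the prior count.

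Several of the largest differences fell on genes that have a near-identical copy elsewhere in the genome. The sequences of these pairs are shown because, within the aligned stretch, gene and copy can be told apart only at the bases that differ. Sequence outside that stretch was not compared. mt-Nd3, a subunit of respiratory complex I encoded by the mitochondrial genome (chrMT:9459-9806, plus strand, GRCm38, GENCODE M21 annotation), and Gm28438, an unprocessed pseudogene on chromosome 1 (chr1:24612775-24613119, minus strand), differed at 1 of 345 aligned bases (T3C, mt-Nd3 first, counted from 1 at the first base of mt-Nd3), and that base is position 9461 of the mitochondrial genome. The first 33 bases of both, with the differing base in capitals, are:
mt-Nd3: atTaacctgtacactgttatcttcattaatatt
Gm28438: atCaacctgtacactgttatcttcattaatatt

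Rpl34, a protein of the large ribosomal subunit (chr3:130726831-130730398, minus strand), and Rpl34-ps1, a processed pseudogene on chromosome 6 (chr6:71124610-71124963, plus strand), differed at 2 of the 354 aligned bases (T132C and C318G, Rpl34 first, counted from 1 at the first base of the pseudogene). The stretches around these bases, again with the differing base in capitals, are:
Rpl34, bases 102 to 162: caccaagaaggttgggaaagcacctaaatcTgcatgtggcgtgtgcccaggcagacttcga
Rpl34-ps1, bases 102 to 162: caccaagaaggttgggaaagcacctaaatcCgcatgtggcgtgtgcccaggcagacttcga
Rpl34, bases 288 to 348: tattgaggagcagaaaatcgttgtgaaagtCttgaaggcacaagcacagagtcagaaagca
Rpl34-ps1, bases 288 to 348: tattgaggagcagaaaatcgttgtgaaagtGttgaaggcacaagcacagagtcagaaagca

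Reads were almost all assigned to Gm28438 in WT and to mt-Nd3 in Ager AHA/AHA. The sources used here do not say how reads that match both were counted, so the split between gene and copy is uncertain. In pouch neutrophils mt-Nd3 was at 0.0647, 0.0618 and 0 CPM in WT replicates 1, 2 and 3 and at 3.45, 2.22 and 1.95 CPM in knock-in replicates 2, 4 and 6. Gm28438 was at 3.17, 3.15 and 1.89 CPM in WT and at 0.0594, 0.171 and 0.0415 CPM in the knock-in. The groups did not overlap for either, and the directions were opposite. From the pooled counts, mt-Nd3 was 60.5-fold higher (2 against 157 counts, 95% exact binomial interval 16.5 to 504) and Gm28438 29.0-fold lower (134 against 6 counts, interval 12.96 to 80.3), and these intervals cover counting error only. The sum of both was 1.89 to 3.24 CPM in WT and 1.99 to 3.51 CPM in the knock-in, so the summed level overlapped between the groups. In lung the sum did not overlap, with 43.8 to 57.3 CPM in WT and 26.7 to 31.1 CPM in the knock-in. Ager-/- neutrophils followed WT, with 0 to 0.0748 CPM of mt-Nd3 and 2.09 to 3.00 CPM of Gm28438, and both genes differed between the mutants (adjusted p = 2.6e-05 for mt-Nd3 and 1.2e-05 for Gm28438).

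For the Rpl34 pair the Ager-/- libraries followed Ager AHA/AHA and not WT. Rpl34-ps1 was at 14.7, 15.8 and 7.43 CPM in WT and at 0.238, 0.171 and 0.166 CPM in the knock-in (log2FC −6.03 ± 0.48 SE, adjusted p = 1.1e-06), and at 0 to 0.262 CPM in Ager-/-. Rpl34 itself was at 26.5, 18.5 and 18.9 CPM in WT and at 67.0, 62.3 and 58.2 CPM in the knock-in (log2FC 1.55 ± 0.20 SE, adjusted p = 4.9e-04). Here the sum of gene and copy did not overlap, with 26.3 to 41.2 CPM in WT and 58.4 to 67.3 CPM in the knock-in. Gm42031, a long noncoding RNA of chromosome 8, was also lower against WT in Ager AHA/AHA and Ager-/-, with 41.8, 39.7 and 14.8 CPM in WT and 0 counts in all 6 mutant libraries. Against a floor of 3 counts over the group, Gm42031 was at least 672-fold lower in Ager AHA/AHA.

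The next group of large differences comprised 3 interferon-inducible genes of chromosome 3. Gbp2b (chr3:142594847-142619179, plus strand, GRCm38), a guanylate-binding protein that neutrophils and macrophages make in response to interferon and that acts against intracellular microbes, was at 2817, 2935 and 2035 CPM in WT. In Ager AHA/AHA it was at 0, 0.171 and 0.0415 CPM, or 5 counts in 3 libraries. Every Ager AHA/AHA library therefore lay far below every WT library, at a ratio of 33120 (95% exact interval 14190 to 102000) in the pooled counts. The test of the difference gave an adjusted p of 7.4e-14 (edgeR).

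Ifi44l and Ifi44, neighbouring genes that encode related cytoplasmic proteins induced by interferon, lie further along the same chromosome at chr3:151758737-151762892 and chr3:151730922-151749960, both on the minus strand. Ifi44l was at 13.8, 22.9 and 16.6 CPM in WT and had 0 counts in all 3 Ager AHA/AHA libraries, which makes it at least 382-fold lower against a floor of 3 counts over the group. Ifi44 was at 47.4, 80.8 and 50.04 CPM in WT and was reduced but still present in Ager AHA/AHA, at 7.67, 7.76 and 10.9 CPM. Its log2 fold change was −2.75 (SE 0.23, adjusted p = 1.3e-06). None of these 3 genes passed as lower in Ager-/- neutrophils, which held 1760 to 2493 CPM of Gbp2b, 25.6 to 30.8 CPM of Ifi44l and 81.9 to 98.3 CPM of Ifi44. The direct contrast of the mutants gave adjusted p = 9.1e-14 for Gbp2b, 1.7e-10 for Ifi44l and 2.8e-08 for Ifi44.

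**Figure D2:**
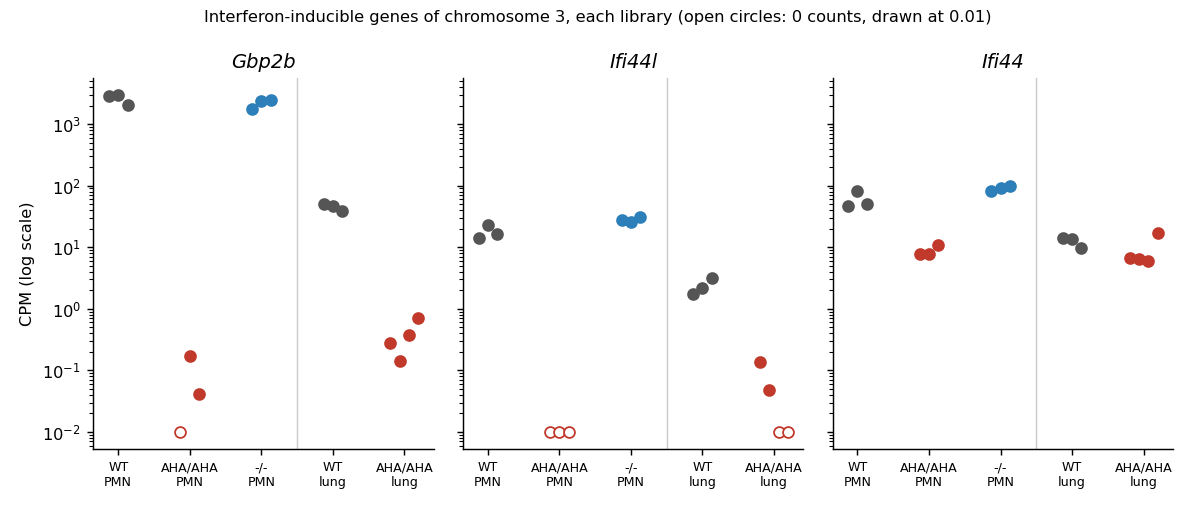
CPM of Gbp2b, Ifi44l and Ifi44 on a log axis in every pouch neutrophil (PMN) library of the 3 genotypes and in every WT and Ager AHA/AHA lung library, 1 circle per library, with 0 counts drawn as open circles at 0.01. Gbp2b and Ifi44l were at or near 0 in Ager AHA/AHA of both tissues, whereas Ifi44 was lower without overlap in neutrophils only, since 1 lung library of Ager AHA/AHA lay above all WT lungs.

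The promoter of Gbp2b is shown because it holds the letters of an interferon-responsive element. The core of the interferon-stimulated response element was searched as GAAANNGAAA on both strands in the 250 bases before the start of each gene, using RefSeq promoters of GRCm38.p6. Gbp2b held 1 match, 137 bases before its start and on the opposite strand, in capitals here (chr3:142594597-142594846, plus strand):
Gbp2b promoter: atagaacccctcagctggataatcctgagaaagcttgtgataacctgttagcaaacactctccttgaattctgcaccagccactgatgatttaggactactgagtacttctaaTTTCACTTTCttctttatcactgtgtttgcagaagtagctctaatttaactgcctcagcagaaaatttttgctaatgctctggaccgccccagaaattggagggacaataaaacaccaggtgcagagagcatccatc
The windows of Ifi44 and Ifi44l held no match. Of all 27025 genes with a promoter in the table, 936 (3.46%) held a match, against 12 of 25 interferon-stimulated genes, 5 of 5 guanylate-binding protein genes and 6 of 8 immunity-related GTPase genes that could be matched by symbol. A match is a description of the sequence only.

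Of 36 type I interferon-stimulated genes tested, 1 was higher and 2 were lower at the adjusted p alone, with a median log2FC of 0.05, where 1.80% of all genes were higher and 1.84% lower. The 2 lower members were Ifi44 and Ifi44l themselves. Mx1, a GTPase that blocks viral replication, rose from 51.3, 116 and 66.0 CPM in WT to 144, 148 and 197 CPM in the knock-in (log2FC 1.07 ± 0.25 SE, adjusted p = 0.0283). This call was lost without WT replicate 1 or 3, without knock-in replicate 4 or 6, and with limma, an alternative test.

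Among 11 guanylate-binding protein genes tested, Gbp4, Gbp6 and Gbp8 of chromosome 5 were higher and Gbp2b alone was lower. The shares of all genes were 1.80% and 1.84%, and the median log2FC of the list was 0.71. Gbp6 was at 4.08, 7.29 and 5.05 CPM in WT and 14.3, 10.1 and 12.9 CPM in the knock-in (log2FC 1.18 ± 0.23 SE, adjusted p = 0.0122). The neighbours of Gbp2b on chromosome 3, named after their values were seen, did not pass the test: Gbp2 was at 2643, 2689 and 1882 CPM in WT and 5161, 3042 and 3600 CPM in the knock-in (log2FC 0.71, adjusted p = 0.0844), and Gbp3 had a log2FC of −0.67 (adjusted p = 0.0713). Of 10 immunity-related GTPase genes, which encode a related family of interferon-induced GTPases, Iigp1 and Gm4951 were higher and none was lower. Iigp1 was at 4.27, 6.37 and 4.00 CPM in WT and 18.5, 7.59 and 20.1 CPM in the knock-in (log2FC 1.66 ± 0.30 SE, adjusted p = 0.00815). Without WT replicate 1, WT replicate 3 or knock-in replicate 6, no guanylate-binding protein or immunity-related GTPase gene was higher, whereas Gbp2b was lower with any of these libraries left out.

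The same contrast was available in lung, in libraries that the neutrophil comparison did not use. There 17458 genes were tested and 27 were called (0.155%). Of the 161 genes higher in neutrophils, 150 were tested in lung and 6 were called higher there. Of the 62 lower ones, 54 were tested and 8 were called lower, and none of the 223 was called in the opposite direction. The 6 were Mcub, Ide, Camk2b, Rpl34, Lrmda and mt-Nd3, and the 8 were Mindy3, Ifi44l, Gbp2b, A930005H10Rik, Rpl34-ps1, Gm5900, Gm28438 and Gm42031. With these genes included, the median lung log2FC was 0.08 over the 150 higher genes and −0.04 over the 54 lower ones. Over all 17458 genes tested in lung it was 0.01. The sign seen in neutrophils was shared by 98 of the 150 and 29 of the 54, and the share over all genes was not counted.

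In lung Gbp2b was at 50.3, 47.3 and 39.0 CPM in WT and at 0.278, 0.142, 0.369 and 0.701 CPM in knock-in replicates 1 to 4 (log2FC −6.88 ± 0.25 SE, adjusted p = 6.8e-10). Ifi44l was at 1.75, 2.15 and 3.12 CPM in WT lung and at 0.139, 0.0472, 0 and 0 CPM in the knock-in lung (adjusted p = 8.8e-04). Ifi44 did not pass the test in lung, with 14.4, 13.8 and 9.71 CPM in WT and 6.58, 6.51, 5.90 and 16.99 CPM in the knock-in (log2FC −0.48, adjusted p = 0.947). Replicate 4 of Ager AHA/AHA thus lay above all WT lungs, and the other 3 libraries lay below them.

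Ide, the insulin-degrading enzyme, was at 0.906, 1.92 and 0.943 CPM in WT neutrophils and 2.20, 3.11 and 5.73 CPM in the knock-in neutrophils (log2FC 1.56 ± 0.38 SE, adjusted p = 0.0330). In lung its level was 50.4 to 57.7 CPM in WT and 103 to 130 CPM in the knock-in (log2FC 1.11 ± 0.12 SE, adjusted p = 2.5e-04). Every Ager AHA/AHA library lay above every WT library in both tissues, and the test of the difference between tissues gave an adjusted p of 0.488. The neutrophil call of Ide was lost without WT replicate 1 or 3, without knock-in replicate 4 or 6, and with limma. Mindy3, a deubiquitinase, was at 31.1, 24.8 and 26.0 CPM in WT and 14.2, 9.29 and 13.03 CPM in the knock-in neutrophils (log2FC −1.17 ± 0.21 SE, adjusted p = 0.00714). The lung level of Mindy3 fell as well, with 44.4 to 46.9 CPM in WT and 21.9 to 24.4 CPM in the knock-in (log2FC −1.01 ± 0.10 SE, adjusted p = 1.6e-04). Mcub, the inhibitory subunit of the mitochondrial calcium uniporter, was at 0.906 to 1.22 CPM in WT and 1.72 to 3.20 CPM in the knock-in neutrophils (log2FC 1.26, adjusted p = 0.0420), and the lung log2FC was 1.04 (adjusted p = 0.00241). The neutrophil call of Mcub was lost when WT replicate 1, 2 or 3, knock-in replicate 4 or 6 or Ager-/- replicate 6 was left out, and with limma, and that of Mindy3 without WT replicate 1 and with limma.

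Lrmda, a gene of melanocyte differentiation, was nearly silent in WT neutrophils at 0.130, 0 and 0.277 CPM and was at 1.01, 1.36 and 1.04 CPM in the knock-in. Lung showed the same contrast at a higher level, with 1.13 to 1.52 CPM in WT and 8.38 to 8.62 CPM in the knock-in (log2FC 2.63 ± 0.24 SE, adjusted p = 5.8e-05). Camk2b, a subunit of a calcium-dependent kinase, had 0, 0 and 0.222 CPM in WT neutrophils and 0.594, 0.725 and 1.16 CPM in the knock-in. Leaving out WT replicate 1 or 2 or knock-in replicate 4 or 6 ended the neutrophil call of both, as did leaving out WT replicate 3 for Lrmda and limma for Camk2b. Gm5900, a processed pseudogene of chromosome 7, fell from 1.55, 1.73 and 1.66 CPM to 0.119, 0.128 and 0.373 CPM in neutrophils and had a lung log2FC of −3.13 (SE 0.35, adjusted p = 4.6e-04). In the direct contrast of the mutants in neutrophils, where 53 of 11632 genes were called (0.456%), mt-Nd3, Gbp2b, Ifi44l, Gm28438 and Gm5900 were called among these 14, and the other 9 were not.

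**Figure D3:**
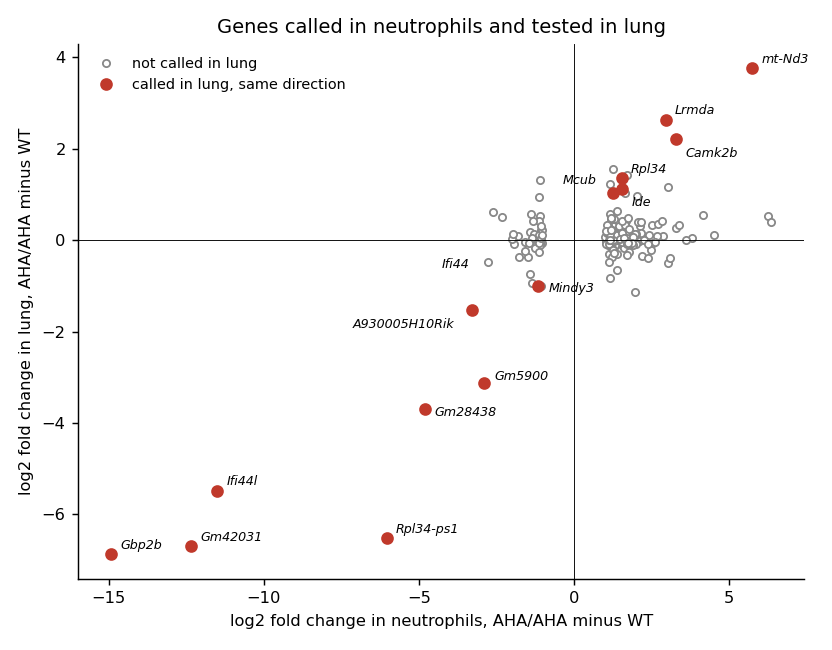
Each circle is 1 of the 204 genes called in neutrophils and also tested in lung, with its log2 fold change (Ager AHA/AHA minus WT) in neutrophils on the horizontal axis and in lung on the vertical axis. Filled circles are the 14 genes called in lung in the same direction, from mt-Nd3 at the top right to Gbp2b at the bottom left. Open circles gather around 0 on the lung axis.

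Chromosome 3 held 21 called genes of 557 tested (3.77%, against 1.92% of all genes), among them Gbp2b, Ifi44, Ifi44l, Rpl34, Mcub, A930005H10Rik and Chil3, and the window from 120 to 130 Mb held 5 of 35. Ager itself lies on chromosome 17 at chr17:34597862-34600936, within the major histocompatibility complex. Within 5 Mb of Ager, 9 of 162 genes tested were called (5.56%). The 8 higher ones were Tnf and 7 histocompatibility genes (H2-M2, H2-Aa, H2-DMb2, H2-DMa, H2-Eb1, H2-Ab1 and H2-DMb1), and Gpank1 was lower. Gene density, chromosome origin and shared cell type were not tested as sources of these counts.

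Ager itself was scarce, at 0.927 to 2.40 CPM in WT and 0.891 to 1.88 CPM in the knock-in (log2FC −0.24 ± 0.37 SE, adjusted p = 0.752). The AHA allele replaces residues, and the paper reports a level of Ager like that of WT in knock-in lung. Counts per gene therefore do not check the knock-in and WT labels. None of the 11 genes tested from the list of RAGE and its ligands passed the test, and none did with any of the 9 pouch libraries left out. S100a8 and S100a9, which form the antimicrobial protein calprotectin, had log2 fold changes of −0.26 (SE 0.21) and −0.28 (SE 0.20), and Hmgb1 had 0.02 (SE 0.18). Of 18 RAGE signalling genes and 25 genes of heparan sulfate synthesis and proteoglycans, none passed the main test either, with median log2FCs of −0.21 and 0.35. In the heparan sulfate list 1 gene was higher and 1 lower with DESeq2, with no filter or without Ager-/- replicate 1. There 1 was higher without WT replicate 2 or knock-in replicate 2, and 1 lower with only the compared groups. A RAGE signalling gene was higher without knock-in replicate 2. Ptprc, which encodes the leukocyte surface protein CD45, was at 1573, 1690 and 1541 CPM in WT and 1885, 1582 and 1572 CPM in the knock-in (log2FC 0.07 ± 0.19 SE, adjusted p = 0.870). Transcripts of the surface markers Ly6c2 (log2FC −0.23 ± 0.23 SE) and Itgam (log2FC −0.22 ± 0.17 SE) did not pass the test.

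The cells carried neutrophil transcripts in both groups. None of 21 neutrophil markers passed the test, and 18 of them had a negative log2FC (median −0.22), against 5576 of the 11632 genes tested. Their summed level was 55260 to 75720 CPM in WT and 48690 to 64960 CPM in the knock-in. Ly6g, the marker used to count neutrophils, was at 70.0, 47.8 and 41.4 CPM in WT and 64.7, 52.8 and 37.8 CPM in the knock-in. Of 18 granule protein genes tested, Chil3 and Serpinb10 were lower and none was higher, against 1.84% and 1.80% of all genes. Chil3 was the member that stayed lower with any of the 6 libraries left out. Among 16 transcription factors of granulocyte formation, Cebpa, Hlx and Runx1 were lower and Irf8 was higher. Cebpa, which directs progenitors to the granulocyte lineage, fell from 13.98, 10.4 and 7.27 CPM in WT to 3.98, 5.58 and 3.44 CPM in the knock-in (log2FC −1.27 ± 0.25 SE, adjusted p = 0.0129). Irf8, which favours monocytes and dendritic cells, rose from 17.9, 32.1 and 24.7 CPM to 35.6, 42.2 and 52.0 CPM (log2FC 0.80 ± 0.21 SE, adjusted p = 0.0420). Without WT replicate 1 or knock-in replicate 6, none of these 4 factors passed.

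Some transcripts of cells other than neutrophils, mainly macrophage, antigen presentation and lymphocyte genes, were higher in Ager AHA/AHA. Of 115 markers of such cells tested, 31 were higher, none was lower and the rest did not pass, against 1.80% and 1.84% of all genes. Without these markers 131 genes were still called higher and 62 lower. In bulk samples, more cells of a type and more RNA per cell cannot be told apart. All gene lists used here, these markers included, were drawn up with earlier tables from these samples in view. The counts of any list are therefore not independent evidence of the direction.

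Of 21 macrophage markers 10 were higher and none lower, against 1.80% and 1.84% of all genes. Their median log2FC was 1.34, and their summed level was 404 to 518 CPM in WT and 530 to 633 CPM in the knock-in. C1qb, a subunit of the complement component C1q, rose from 9.06, 10.4 and 4.27 CPM to 19.9, 24.9 and 28.8 CPM (log2FC 1.64 ± 0.27 SE, adjusted p = 0.00432). Pltp, a phospholipid transfer protein, rose from 8.22, 8.03 and 6.10 CPM to 12.9, 18.8 and 24.5 CPM (log2FC 1.34 ± 0.23 SE). Lpl, a lipoprotein lipase named after its values were seen, rose from 7.25, 16.5 and 4.38 CPM to 25.3, 51.3 and 43.9 CPM (log2FC 2.10 ± 0.43 SE, adjusted p = 0.0325). Adgre1, which encodes the macrophage protein F4/80, went the other way without passing the test, with 78.7, 78.5 and 59.5 CPM in WT and 64.8, 54.6 and 55.0 CPM in the knock-in (adjusted p = 0.323). In Ager-/- the summed level was 691 to 795 CPM. The count of higher macrophage markers was 6 without WT replicate 1 and 7 to 11 with another of the 6 libraries left out.

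Of 21 antigen presentation genes 9 were higher and none lower, against 1.80% and 1.84% of all genes, with a median log2FC of 0.80. H2-Aa, a chain of the MHC class II protein, was at 75.2, 97.7 and 64.3 CPM in WT and 128, 199 and 177 CPM in the knock-in (log2FC 1.09 ± 0.20 SE, adjusted p = 0.00815). Cd40, a costimulatory receptor, was at 25.7, 38.4 and 27.9 CPM in WT and 54.5, 71.7 and 63.2 CPM in the knock-in (log2FC 1.04 ± 0.19 SE, adjusted p = 0.00769). With WT replicate 1 left out 1 member was higher, with 3 members without WT replicate 3, 5 without knock-in replicate 4 and 2 without knock-in replicate 6.

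Lymphocyte transcripts were scarce and leaned the same way. All 20 NK and cytotoxic lymphocyte markers tested had a positive log2FC (median 0.91, against 6055 positive values among the 11632 genes). The test was passed by 7 of them, against 1.80% of all genes that were higher. Their summed level was 340 CPM, 493 CPM and 330 CPM in WT replicates 1, 2 and 3 and 579 CPM, 547 CPM and 664 CPM in knock-in replicates 2, 4 and 6. Tbx21, the transcription factor T-bet, rose from 2.01, 2.23 and 1.72 CPM to 5.82, 3.24 and 4.94 CPM (log2FC 1.23 ± 0.29 SE, adjusted p = 0.0282). Xcl1, a chemokine for cross-presenting dendritic cells, rose from 0.712, 0.742 and 0.499 CPM to 2.85, 1.88 and 2.57 CPM (log2FC 1.90 ± 0.38 SE, adjusted p = 0.0129). Of 21 T cell markers, Lck, Cd8a and Skap1 were higher, and all 21 had a positive log2FC. No NK or T cell marker was higher without WT replicate 1, WT replicate 3 or knock-in replicate 6, and 3 and 4 NK markers were higher without knock-in replicates 2 and 4. In Ager-/- the summed NK markers were at 704 to 739 CPM. No marker of B cells passed, and the B cell gene Ms4a1 had no counts in any of the 6 libraries.

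Stromal and epithelial transcripts stood out in a single WT library. The summed level of these markers was 313 CPM in WT replicate 2 and 58.8 to 93.3 CPM in the other 5 libraries, and the keratin genes Krt5 and Krt14 had no counts in any of them. None of the 6 markers tested passed, but 3 were higher when WT replicate 2 was left out, and 1 was lower with DESeq2 or without Ager-/- replicate 1.

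Several inflammatory mediators were higher in Ager AHA/AHA. Of 24 LPS-induced cytokines and mediators tested, 10 were higher and 1 was lower, against 1.80% and 1.84% of all genes, with a median log2FC of 0.92. Tnfsf15, a ligand of the tumour necrosis factor family, was at 2.40, 4.08 and 2.33 CPM in WT and 7.61, 10.1 and 8.30 CPM in the knock-in (log2FC 1.56 ± 0.25 SE, adjusted p = 0.00364), and this call held with each of the 9 libraries left out. Il27, which encodes the p28 subunit of interleukin-27, rose from 19.7, 27.7 and 15.3 CPM to 57.8, 36.4 and 47.0 CPM (log2FC 1.17 ± 0.22 SE, adjusted p = 0.0104). Il6, a pyrogenic cytokine, rose from 7.25, 10.01 and 8.71 CPM to 20.3, 23.0 and 14.98 CPM (log2FC 1.16 ± 0.27 SE, adjusted p = 0.0291). For all of these every Ager AHA/AHA library lay above every WT library.

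Tnf, which encodes tumour necrosis factor and was named after its values were seen, was at 320 CPM, 391 CPM and 263 CPM in WT and 1041 CPM, 626 CPM and 454 CPM in the knock-in (log2FC 1.12 ± 0.27 SE, adjusted p = 0.0359). Ptx3, a soluble pattern recognition protein, rose from 6.54, 10.01 and 3.77 CPM to 14.3, 16.8 and 14.8 CPM (log2FC 1.18 ± 0.28 SE, adjusted p = 0.0306). Ifng, the gene of interferon gamma, was scarce and rose from 2.14, 2.78 and 1.17 CPM to 5.53, 4.43 and 4.40 CPM (log2FC 1.24 ± 0.30 SE, adjusted p = 0.0310). The others that passed were Tnfsf8, Ch25h, Il12b and Lif, the last 2 also named after their values were seen. Nos2, the inducible nitric oxide synthase, was the member that fell, from 502, 723 and 498 CPM to 384, 266 and 282 CPM (log2FC −0.89 ± 0.21 SE, adjusted p = 0.0311).

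Il1b, which encodes interleukin-1 beta (log2FC 0.29 ± 0.21 SE), and Cxcl2, a neutrophil chemoattractant (log2FC 0.38 ± 0.20 SE), both named after their values were seen, did not pass. Of 20 chemokines tested, Xcl1 alone passed and was higher, where 1.80% of all genes were higher and 1.84% lower. Xcl1, and Ifng of the mediator list, were also counted among the NK markers above. With WT replicate 1 left out 1 mediator was higher, with 2 mediators without WT replicate 3 or knock-in replicate 6, 5 without knock-in replicate 4 and 6 without knock-in replicate 2. With limma 3 mediators were higher. Nos2 did not pass with limma, with any single WT library left out, or without knock-in replicate 4 or 6. The summed macrophage and NK markers given above were also higher in the knock-in, and their part in the counts was not tested. The summed level of the mediator list overlapped, with 56530 to 82140 CPM in WT and 59810 to 83520 CPM in the knock-in. The mediator sum in Ager-/- was 47550 to 49450 CPM. None of the 24 mediators tested passed the adjusted p between Ager AHA/AHA and Ager-/-.

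**Figure D4:**
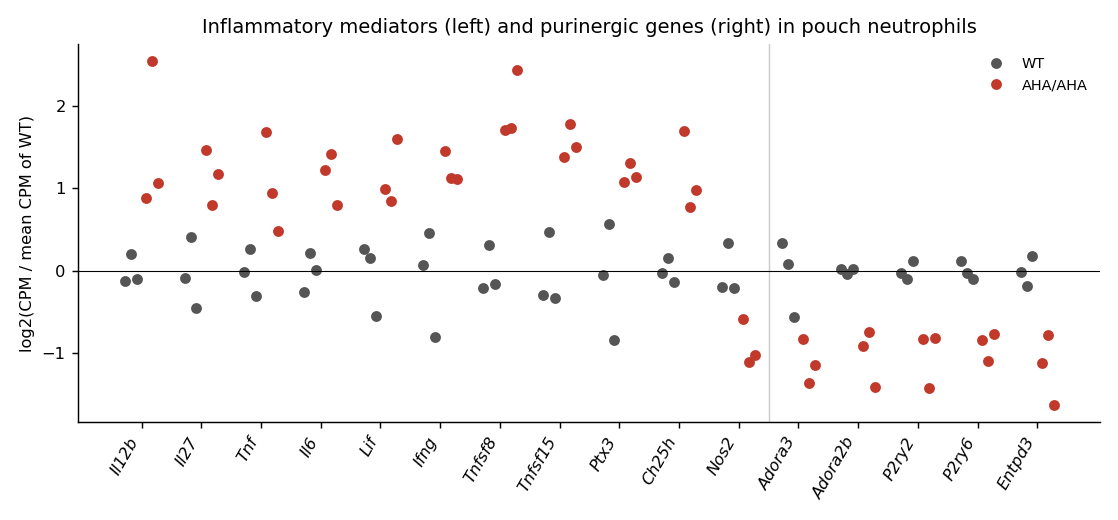
For each gene, the log2 ratio of the CPM in a library to the mean CPM of WT is drawn for the 3 WT libraries (grey) and the 3 Ager AHA/AHA libraries (red) of pouch neutrophils. The 10 mediators at the left of the axis lie above 0 in every Ager AHA/AHA library and Nos2 lies below, as do the 5 purinergic genes to the right of the grey line.

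Receptors and enzymes for extracellular nucleotides, which guide neutrophil migration and set activation thresholds, included several lower genes. Of 19 adenosine and nucleotide signalling genes tested, 5 were lower and none was higher, against 1.84% and 1.80% of all genes, and the median log2FC of the list was 0.03. Adora3, the A3 adenosine receptor that neutrophils use in chemotaxis, was at 162, 136 and 87.2 CPM in WT and 72.4, 50.1 and 58.3 CPM in the knock-in (log2FC −1.09 ± 0.21 SE, adjusted p = 0.0122). P2ry2, a receptor for ATP and UTP, was at 124, 117 and 136 CPM in WT and 70.8, 47.2 and 71.7 CPM in the knock-in (log2FC −0.99 ± 0.18 SE, adjusted p = 0.00783). Entpd3, an ectonucleotidase, fell from 37.4, 33.1 and 42.9 CPM to 17.4, 22.1 and 12.2 CPM (log2FC −1.13 ± 0.20 SE, adjusted p = 0.00721). Adora2b and the UDP receptor gene P2ry6 completed the group. None of them passed the test between Ager AHA/AHA and Ager-/-. The count of lower members was 1 without WT replicate 1 or knock-in replicate 6, 2 without knock-in replicate 4 and 4 to 6 with another of the 6 libraries left out. It was 2 with limma, and 3 members were higher without knock-in replicate 2 and 2 with DESeq2.

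Of 22 endoplasmic reticulum stress genes 4 were lower and none higher, against 1.84% and 1.80% of all genes. In this list 19 members had a negative log2FC (median −0.32), against 5576 of the 11632 genes tested. Herpud1, which acts in the degradation of misfolded proteins, fell from 82.8, 54.8 and 51.4 CPM to 30.4, 31.2 and 26.6 CPM (log2FC −1.10 ± 0.20 SE, adjusted p = 0.00769). P4hb, a protein disulfide isomerase, fell from 454, 271 and 313 CPM to 183, 173 and 164 CPM (log2FC −0.999 ± 0.19 SE, adjusted p = 0.0109). WT replicate 1 was the highest library for both. None of the 22 genes passed without WT replicate 1 or knock-in replicate 6, 1 passed without knock-in replicate 4, and 2 passed without WT replicate 3 or knock-in replicate 2.

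Of 26 autophagy genes 2 were lower, Fnip2 and Atg12, and none higher, against 1.84% and 1.80% of all genes. Negative log2FCs numbered 21 (median −0.32), against 5576 of the 11632 genes tested. No autophagy gene was lower without WT replicate 3 or knock-in replicate 4. Of 18 DNA damage response genes, Parp1, Atm and Rad54l2 were higher and none was lower, against 1.80% and 1.84% of all genes. The higher genes were all scarce, with Parp1 at 0.518 to 0.803 CPM in WT and 1.54 to 3.44 CPM in the knock-in (log2FC 1.70 ± 0.38 SE, adjusted p = 0.0238). None of these passed without WT replicate 1, WT replicate 3 or knock-in replicate 6, and 1 passed without knock-in replicate 4. Il4ra, the interleukin-4 receptor chain, fell from 1758, 1442 and 1367 CPM to 926, 612 and 953 CPM (log2FC −0.87 ± 0.19 SE, adjusted p = 0.0238), and Il4ra was also lower than WT in Ager-/- (log2FC −0.91, adjusted p = 0.00988). Without WT replicate 1, knock-in replicate 4 or knock-in replicate 6, and with limma, Il4ra did not pass in the knock-in. Of 38 Toll-like receptor and NF-κB genes, the receptor genes Tlr3 and Cd180 were higher and none was lower, against 1.80% and 1.84% of all genes. Cd180 did not pass with limma or without WT replicate 1, WT replicate 3 or knock-in replicate 4 or 6, and 2 members were lower with DESeq2 or without Ager-/- replicate 1. No member passed the main test among 18 adhesion receptors and ligands, 19 chemoattractant and growth factor receptors and 19 survival and apoptosis genes. An adhesion gene was lower with DESeq2, with no filter or without Ager-/- replicate 1. So was a survival gene with no filter or without Ager-/- replicate 1, and a gene of the receptor list with DESeq2.

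**Figure D5:**
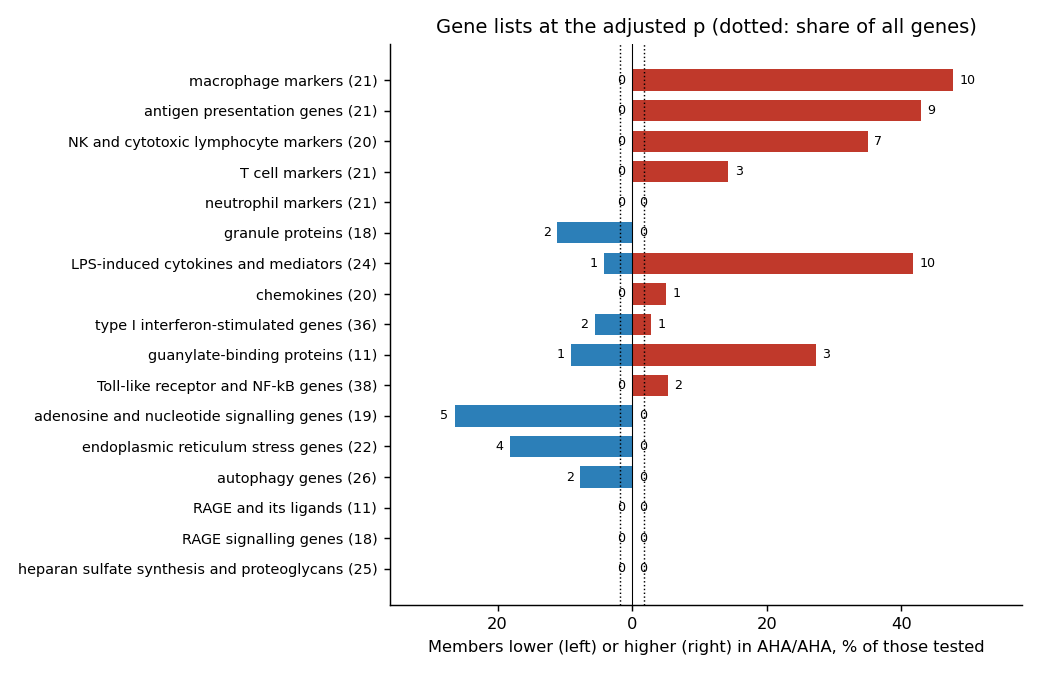
For 17 gene lists, bars give the percentage of the members tested (number in brackets) that were higher (red, to the right) or lower (blue, to the left) in Ager AHA/AHA neutrophils at an adjusted p under 0.05, with the counts beside them. Dotted lines mark the shares of all genes, 1.80% higher and 1.84% lower. The macrophage, antigen presentation and mediator lists extend furthest to the right and the purinergic list furthest to the left.

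Among the largest changes outside these lists was Tanc2, a gene on the higher side. Tanc2, a scaffold protein best known from synapses, was at 0.194, 0.185 and 0.111 CPM in WT and 1.84, 1.58 and 1.83 CPM in the knock-in (log2FC 3.38 ± 0.51 SE, adjusted p = 0.00207). Flrt2, a transmembrane adhesion protein, had a log2FC of 3.04 (SE 0.73, adjusted p = 0.0318), and did not pass with limma or without WT replicate 1 or 3 or knock-in replicate 4 or 6. Gm25405, annotated as a small nuclear RNA, a class with near-identical copies that make the assignment of reads uncertain, had 0 counts in all WT libraries and 29, 24 and 45 counts in Ager AHA/AHA, at least 25.2-fold higher against a floor of 3 counts over the group. Lap3, an aminopeptidase, rose from 1.55, 2.53 and 1.94 CPM to 4.75, 7.38 and 8.17 CPM (log2FC 1.75 ± 0.26 SE, adjusted p = 0.00207). G530011O06Rik, a noncoding transcript of the X chromosome, was at 1.81, 2.35 and 1.22 CPM in WT and 9.86, 4.82 and 7.26 CPM in the knock-in and differed from Ager-/- (adjusted p = 8.8e-04).

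On the lower side, Uck2, a uridine-cytidine kinase, fell from 24.5, 12.5 and 22.0 CPM to 8.50, 7.55 and 7.76 CPM (log2FC −1.31 ± 0.23 SE, adjusted p = 0.00684). Ddx28, an RNA helicase of mitochondrial ribosome assembly, fell from 7.51, 5.44 and 4.72 CPM to 1.72, 2.56 and 2.08 CPM (log2FC −1.46 ± 0.26 SE, adjusted p = 0.00714). Gm19951, a long intergenic noncoding RNA of chromosome 12, was at 30.8, 16.8 and 22.8 CPM in WT, 8.79, 7.72 and 7.14 CPM in the knock-in and 16.3 to 17.9 CPM in Ager-/-, and differed between the mutants (adjusted p = 0.0139). For these genes no Ager AHA/AHA library reached the lowest WT library, which was a condition of the rule that named them. Uck2 and Ddx28 did not pass when WT replicate 1 or knock-in replicate 6 was left out, nor did Uck2 with limma. Of the 100 named genes that passed the adjusted p, 11 kept it under each of 19 alternative settings, namely Gm25405, mt-Nd3, Rpl34, C1qa, Gbp2b, Gm42031, Ifi44l, Gm28438, Ifi44, Chil3 and G530011O06Rik.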

How the data were processed

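RNA of pouch neutrophils and lung was sequenced as paired reads of 150 bases. By the submitters' processing notes and the methods, the authors used CASAVA, fastp, STAR (mm10) and featureCounts, and the sources used here state neither their versions nor how strand and reads of several matches were handled. The authors deposited raw counts per gene and FPKM, counts divided by gene length and a scale per library. Their deposited log2 fold changes and p-values were not used.

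Counts were fitted per tissue over its 3 genotypes with edgeR 4.0.16 (TMM scaling, its default filter, robust quasi-likelihood test) in R 4.3.3, with limma 3.58.1 and DESeq2 1.42.0 as alternatives, data.table (1.17.8), and matplotlib 3.10.9 and pandas 2.3.3 in Python 3.11.15. Calls needed a Benjamini-Hochberg adjusted p below 0.05 and, except for members of lists, a log2 fold change over 1 in size. Values are CPM on TMM library sizes. Floors of 3 counts and exact 95% intervals cover counting error only. The difference between tissues was an interaction in a fit of 20 libraries. On simulated counts for the neutrophil comparison (10840 genes), 81% of 4-fold and 36% of 2-fold changes were recovered, with 3.31% false calls. These shares are for the adjusted p alone, without the fold threshold. The simulated libraries were drawn independently, with Ager-/- set equal to WT, so they do not cover the dependence on single real libraries. Pseudogene and promoter sequences came from GENCODE M21 and RefSeq.

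Named genes were the 12 largest changes and 6 others by p per direction, called, without overlap of the groups and averaging 1 CPM or more, with at most 6 passing members of each list and the genes that the study names. The members, rule and lists were chosen with earlier results of these data known. The alternatives were other scalings, filters and tests, thinned counts, FPKM with a pseudocount of 1 or 0.1, a block for the replicate number, no fold threshold, a test against 1.5-fold, only the compared groups, and each library left out. The methods text speaks of biological replicates and 3 to 4 mice a genotype, while the labels do not tie a library to a mouse.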

Additional observations from a re-analysis of the deposited data

Results flagged for a closer look

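Ifi44 in Ager AHA/AHA lung had 1 library far from the others, replicate 4 at 16.99 CPM against 5.90 to 6.58 CPM in replicates 1 to 3. The gap to the nearest library was 0.938 of the whole range, above the limit of Dixon's test for 4 samples. About 1 in 20 groups is marked in this way by chance. The test was run on 15 genes in Ager AHA/AHA lung, and Ifi44 alone was marked.

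The log2 fold change of Gbp2b was lower in neutrophils than in lung by −8.06 (adjusted p = 6.4e-08 for the interaction in the fit of 20 libraries). Both tissues showed the reduction, and the Ager AHA/AHA counts were 5 over 3 neutrophil libraries and 6, 3, 7 and 17 in the 4 lung libraries. The WT mean was 2596 CPM in neutrophils and 45.5 CPM in lung. With knock-in counts near 0, the size of the fold change is limited by the WT level. The difference therefore cannot be read as a stronger effect in neutrophils. For Ifi44 the difference between the tissues was −2.20 (adjusted p = 0.0208), and the lung value included the distant library.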

How the results depend on the processing

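The count of 223 genes was 389 with no filter, 63 and 90 with limma on log2(FPKM + 1) and log2(FPKM + 0.1), 423 with no fold threshold and 33 in a test against 1.5-fold, and 40 to 352 with 1 library left out. The 161 higher genes were 306 with no filter, 35 and 58 with limma, 22 against 1.5-fold and 26 to 268 with 1 library left out. The 62 lower genes were 28 and 32 with limma, 214 with no fold threshold, 11 against 1.5-fold and 14 to 96 with 1 library left out. The 423 genes at the adjusted p alone were 761 with DESeq2, 807 with no filter, 79 and 90 with limma and 40 to 835 with 1 library left out. All 40 genes called without WT replicate 1 were among the 223. With limma on the 2 scales, 7 and 8 macrophage markers, 3 antigen presentation genes, 3 NK markers and 1 and 0 T cell markers were higher, no guanylate-binding protein, immunity-related GTPase or DNA damage response gene was, and 1 endoplasmic reticulum stress gene and no autophagy gene was lower. The cause of these shifts was not tested, and FPKM per count, after TMM scaling, ranged from 0.820 to 1.18 between the 9 libraries. A block for the replicate number left 19 calls at either threshold, 8 higher and 11 lower, of which 15 were among the 223. WT and Ager AHA/AHA share only number 2 in neutrophils, and those libraries deviated with a correlation of −0.133, so the numbers were not taken as pairs.

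Log2 fold changes of genes that did not pass the test changed sign under some settings. Under the block S100a6 was at 0.26, Ptprc at −0.17 and S100a11 at 0.023. With 1 library left out S100a6 was at −0.25 to 0.091, Ager at −0.54 to 0.18, Ptprc at −0.026 to 0.15, S100a11 at −0.33 to 0.084, S100a13 at −0.091 to 0.25, Hmgb1 at −0.062 to 0.069 and Ly6c1 at −0.29 to 0.26. Thinned counts put S100a13 at −0.0023, and limma put Hmgb1 at −0.0099 and −0.0095 and Ly6c1 at −0.0047. None of the 100 named genes that passed changed sign. In the simulated counts 2-fold changes were often missed, so a gene that did not pass may still differ.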
